A study of Mus musculus with 9 samples.

Results

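Lung miRNAs were compared between 3 model mice, which had received D-galactose plus sodium nitrite, and 3 control mice. The comparison holds 379 of the 1881 mouse miRNAs on the array, namely those that the scanner software called detected on all 3 model arrays or on all 3 control arrays. Of these, 370 were detected on every model array, 304 on every control array and 295 on all 6. The labels of the model mice name both agents and 42 days, without saying whether this is the length of treatment. Per the labels, all 3 model mice were female, whereas control 1 was male and controls 2 and 3 were female, with no treatment named for any control. Strain, age and doses of both agents are not given in the sources used here. Long exposure to D-galactose, a sugar that promotes oxidation and glycation, together with nitrite, which converts haemoglobin to a form that carries no oxygen, is used in rodents to imitate features of ageing. Another set of 3 lungs, from 2 male mice and 1 female given the plant Codonopsis pilosula at 15 g per kg, with 30 days on the label, enters here through the estimate of spread and, where stated, as values beside a result.

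A miRNA is cut from a hairpin precursor, whose left (5p) and right (3p) arms can each yield a mature strand, and one of them is usually kept while the other is degraded. The kept strand guides the silencing complex to messenger RNAs that pair with its seed, bases 2 to 8, so that miRNAs with the same seed form a family with overlapping targets. In lung, miR-126a is known as an endothelial miRNA, the miR-200 family as epithelial, and miR-142a and miR-223 as miRNAs of blood-derived cells. All of these were measured in whole lung tissue, where fewer cells of a type and less RNA per cell cannot be told apart.

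The mature sequences that the results turn on are given first, from RefSeq on build GRCm38.p6, where 305 of the 379 miRNAs were matched by name. Capitals mark the seed. The first set shares the let-7 seed GAGGUAG and is shown because 8 of its 10 members had every model array above every control array. Over all miRNAs tested that share was 14.4%.
let-7b-5p: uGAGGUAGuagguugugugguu
let-7i-5p: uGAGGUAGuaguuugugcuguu
let-7c-5p: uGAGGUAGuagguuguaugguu
miR-98-5p: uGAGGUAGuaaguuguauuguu
let-7k: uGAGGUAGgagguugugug

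The second set shares the seed AGCAGCA of miR-15 and miR-16. It is shown because members with 1 seed differed in how far their model arrays stood from the controls.
miR-195a-5p: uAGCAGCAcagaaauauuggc
miR-497a-5p: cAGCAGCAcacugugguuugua
miR-322-5p: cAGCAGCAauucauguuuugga
miR-16-5p: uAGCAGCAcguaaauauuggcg

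The third set holds miRNAs of other seeds that the text below describes. They are miR-200c-3p and miR-200a-5p, both of epithelial hairpins, the leukocyte strand miR-142a-3p, and miR-186-5p, which had the smallest p-value.
miR-200c-3p: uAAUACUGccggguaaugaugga
miR-200a-5p: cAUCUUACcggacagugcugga
miR-142a-3p: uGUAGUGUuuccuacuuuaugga
miR-186-5p: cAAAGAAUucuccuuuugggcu

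The last sequence is the miR-126a hairpin, at chr2:26591357-26591429 on the plus strand and inside the span of Egfl7, a gene of endothelial cells. It is shown because its arms went in opposite directions. Capitals mark the 3p arm, and the 5p arm is cut from the stretch to the left of it.
Mir126a: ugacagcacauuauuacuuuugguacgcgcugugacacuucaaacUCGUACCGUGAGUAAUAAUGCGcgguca

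Levels below are log2 signals scaled to the array's 75th percentile, so that 0 is that percentile and 1 unit is a doubling, and differences are model minus control. A level says how bright the probes of a miRNA were and is not compared between miRNAs as an amount. Detection counts were 389, 405 and 407 miRNAs on model arrays 1 to 3, and 484, 448 and 375 on controls 1 to 3. The 75th percentile of signal was 244.5 on control 1 and 394.2 to 538.2 on the other 5 arrays, and control 1 correlated with the others at a median of 0.886, where the remaining arrays of the series reached 0.951 to 0.978. The 3 control arrays lay on 1 slide and the model arrays on another, so the slide and the treatment cannot be told apart in any value below. Control 1 is the only male of the 6, so leaving it out also leaves females only.

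After adjustment over the 404 miRNAs tested in the series, 0 of the 379 passed in limma, and the smallest adjusted p was 0.283. At an unadjusted p under 0.05 there were 46 members, 34 higher and 12 lower, against a background of 11.6% of all miRNAs tested (8.66% higher and 2.97% lower). For 57 members every model array lay above every control array, and for 34 every model array lay below, where the background shares were 14.4% and 8.91%, or 23.3% for both directions. In all, 211 members were higher and 168 lower, beside 54.5% of tested miRNAs higher. Since nearly all tested miRNAs are members, these counts and their backgrounds describe almost the same set. Among the 295 detected on all 6 arrays, which did not become members through 1 group alone, 46 lay above every control and 27 below, and of the 57 above, 11 were detected on fewer than 3 controls. The differences ran from −2.15 to 1.29 with a median of 0.05, and their middle part lay between quartiles of −0.25 and 0.25.

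Nearly every member was read by more than 1 probe, and brightness differed widely between members. All probes pointed the same way for 294 of the 378 members with several probes. Among the brightest members (126, levels of −2.18 and above) 93 were higher, 30 lay above every control and 3 below, with a median difference of 0.15. Among the dimmest (127, levels of −4.63 and below) 59 were higher, 14 lay above and 17 below, with a median of −0.02. Control 1 was part of this pattern: on it 95 of the 126 bright members stood below the mean of controls 2 and 3, and against controls 2 and 3 alone the bright median was 0.05 and the dim median 0.08. Across the 305 members with a sequence, the difference was only weakly related to GC content (r = −0.12), a description over miRNAs that share the same 6 arrays.

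**Figure D1:**
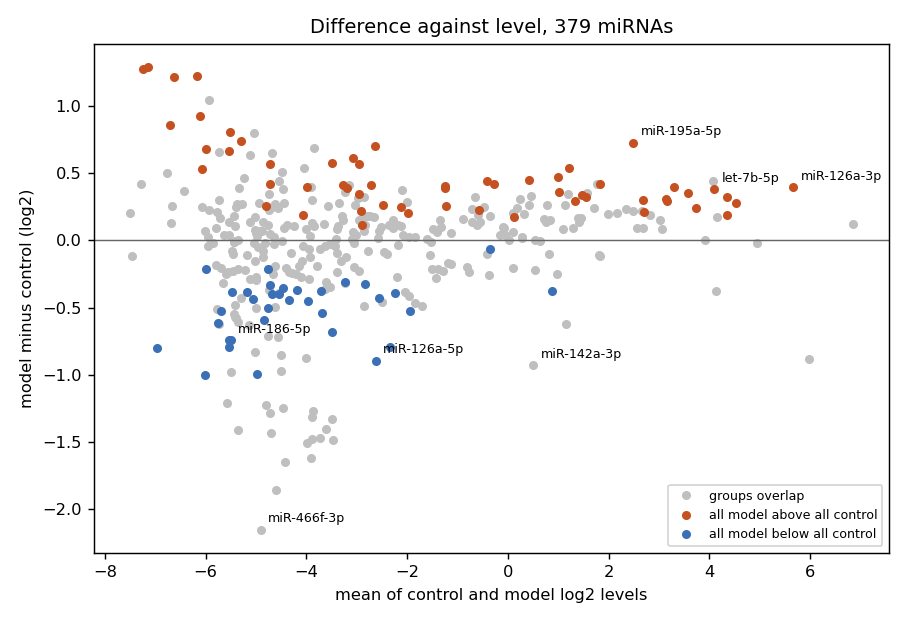
Model minus control difference (log2) of each of the 379 miRNAs against the mean of its control and model levels (log2 scaled signal). Red points are the 57 with all model arrays above all controls, blue points the 34 with all below, and grey points overlap; the 18 grey points at −1 or lower, down to −2.15, all lie outside the bright members.

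The arms of miR-126a moved apart. The bright 3p arm, the main strand in endothelium, stood at 5.17, 5.57 and 5.68 in controls 1 to 3 and at 5.79, 5.90 and 5.91 in models 1 to 3. The 5p arm stood at −2.37, −2.04 and −2.11 in controls and at −2.94, −3.15 and −3.11 in models. All model arrays were thus the higher for 3p and the lower for 5p, with differences of 0.39 (SE 0.18, limma adjusted p = 0.437) and −0.89 (SE 0.22, limma adjusted p = 0.283), so neither arm passed by itself. Both probes of the 5p arm were lower, by −0.52 and −0.91.

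The log2 ratio of 5p over 3p, taken within each array, removes any factor common to an array. For miR-126a it was −7.54, −7.61 and −7.79 in controls and −8.73, −9.05 and −9.02 in models, with a wide gap between the groups. The ratio fell by 1.29 on the log2 scale (SE 0.15, 95% interval −1.63 to −0.94), with a limma adjusted p of 0.0022 over the 52 hairpins whose arms were both tested. This fit was added after the opposite directions of these arms were known, and its size shows unequal change of the arms, not which arm changed. On the 3 codonopsis arrays, which lay on the slide of the model arrays, the ratio was −8.72, −9.03 and −8.73, close to the model values, and a part of the slide in the result was not tested. The adjusted p was 0.401 with quantile normalization, 0.386 in the deposited log2 table and 0.066 with normexp, while the ratio itself stayed lower in model, between −1.32 and −0.93 under every scaling and signal tried.

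A second hairpin passed, miR-6516, with the opposite direction. Its 5p over 3p ratio was −2.45, −1.80 and −1.93 in controls and −1.02, −1.19 and −1.30 in models, with no overlap. The ratio rose by 0.89 (SE 0.18, limma adjusted p = 0.0431), the 5p arm being higher by 0.53 and the 3p arm lower by −0.36. Codonopsis arrays gave −1.37, −1.40 and −1.50, next to the model values. This call was lost without control 3, without any 1 of the model arrays, in a fit of the 6 arrays alone, with sex as a covariate, with a block on the numbers in the sample titles, and with normexp, quantile normalization, the total gene signal and the deposited log2 table. The 5p arm was among the dim members.

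The background in this family was 3.85% of 52 ratios past the adjusted threshold and 26.9% without overlap between groups, 11 above and 3 below. In 19 of the 52 pairs the arms pointed in opposite directions. Next in order, without passing, came miR-200a (0.72, SE 0.17, limma adjusted p = 0.0683), miR-142a (0.75, SE 0.22, limma adjusted p = 0.112) and miR-31 (0.52, SE 0.15, limma adjusted p = 0.112). For miR-200a the epithelial 3p strand differed by 0.09, within the spread of the arrays, and the dim 5p strand by 0.80, with models at −5.06, −5.30 and −4.95 and controls at −6.34, −5.48 and −5.91. With normexp the miR-200a ratio was −0.07, so its direction turned. For miR-142a both arms were lower, the 3p arm by −0.93 and the 5p arm by −0.18.

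**Figure D2:**
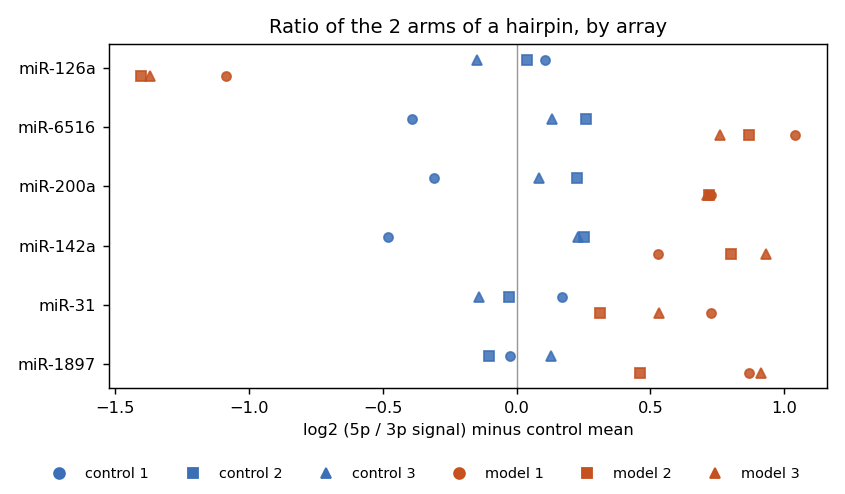
Log2 of 5p over 3p signal on each array, minus the mean of the 3 controls, for the 6 hairpins with the smallest p-values. Blue symbols are controls 1 to 3 and red symbols models 1 to 3; only miR-126a lies to the left, around −1.29, and miR-126a and miR-6516 alone of the 52 passed.

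The let-7 family, abundant miRNAs that restrain growth-promoting genes, was higher on the model arrays relative to the 75th percentile. Of 10 members with the seed GAGGUAG, 9 were higher and 8 lay above every control array, with a median difference of 0.29 beside 0.05 over all members, and 0 passed. Over all tested miRNAs 54.5% were higher and 14.4% lay above every control, and of the 126 bright members 93 were higher and 30 lay above. let-7b-5p stood at 3.89, 3.95 and 3.87 in controls and 4.31, 4.34 and 4.21 in models, and let-7c-5p and let-7i-5p likewise did not overlap, by 0.32 (SE 0.12) and 0.39 (SE 0.14). miR-98-5p, an X-linked member, differed by 0.10 with overlap, and the dim let-7k by −0.21. In let-7k the mean rested on control 1, at −4.78 against −5.95 and −6.03 in controls 2 and 3, while models read −5.90, −5.72 and −5.77.

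Control 1 was the lowest of the controls in 8 of the 10 let-7 members. Against controls 2 and 3 alone 9 were still higher, with a median of 0.20. Relative to the median over all tested miRNAs, however, the direction of the family turned with quantile normalization and with the deposited log2 table.

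The miR-15 and miR-16 family, known to hold back the cell cycle, was graded. All 6 members were higher, 3 of them above every control, with a median of 0.33. The shares over all tested miRNAs were 54.5% higher and 14.4% above, and 93 and 30 of the 126 bright members. miR-195a-5p had the widest gap, at 1.75, 2.36 and 2.27 in controls and 2.86, 2.95 and 2.75 in models, a difference of 0.72 (SE 0.19, limma adjusted p = 0.332). Its neighbour on chromosome 11, miR-497a-5p, from the same miRNA cluster, read 1.39, 1.76 and 1.73 in controls and 1.98, 2.15 and 1.996 in models, again without overlap.

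For miR-16-5p the levels were 2.23, 2.63 and 2.70 in controls and 2.63, 2.63 and 2.58 in models, so that only control 1 stood apart. Control 1 was the lowest control in all 6 members, and against controls 2 and 3 only 3 of 6 were higher, with a median of 0.10. miR-195a-5p and miR-497a-5p kept differences of 0.53 and 0.30 there. The family's direction relative to all miRNAs turned under the same 2 settings as that of let-7.

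**Figure D3:**
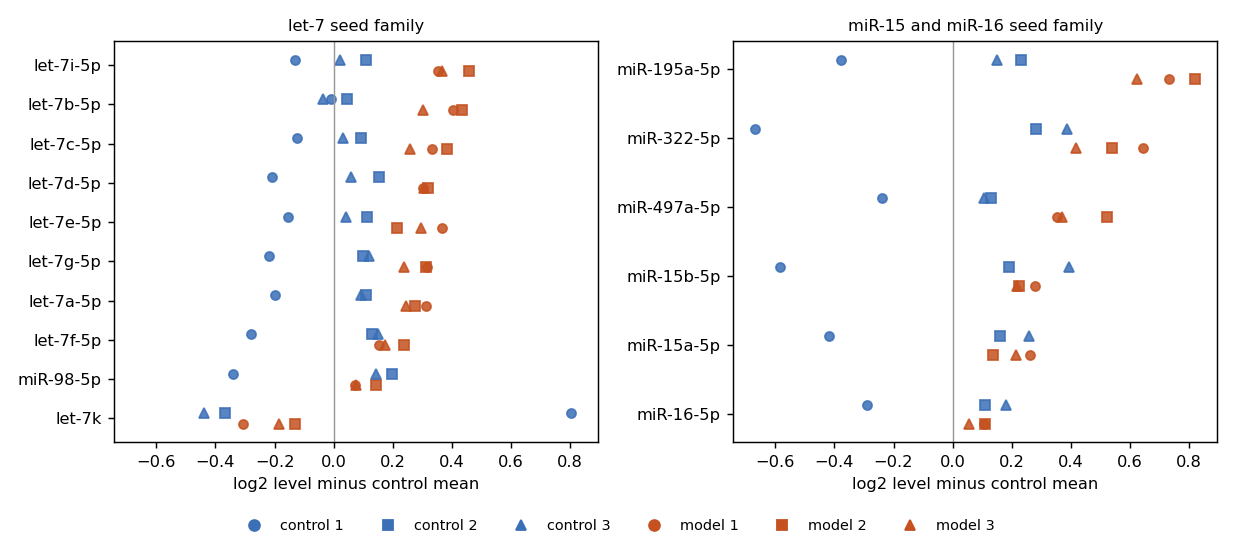
Level of each member of the let-7 seed family (left) and of the miR-15 and miR-16 seed family (right) on each array, minus the mean of the 3 controls (log2). Circles of control 1 lie to the left of the other controls in 8 of 10 and 6 of 6 members; models of miR-195a-5p lie to the right of every control, whereas those of miR-16-5p mix with controls 2 and 3.

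Other seed families were smaller. The 3 members with the miR-200b seed AAUACUG were all higher, with a median of 0.35 and 0.24 against controls 2 and 3. Among them miR-200c-3p, which represses the ZEB factors that drive loss of epithelial character, read 0.65, 0.91 and 0.70 in controls and 1.34, 1.08 and 1.25 in models. Its model values lay above every control, though relative to all miRNAs its direction turned with quantile normalization and the deposited log2 table. Of the 5 members with the miR-17 seed AAAGUGC, from clusters that promote proliferation, 4 were higher, with a median of 0.23 that was 0.07 against controls 2 and 3.

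Outside these families, the members above every control with the smallest p-values included miR-135a-1-3p, the passenger arm of a hairpin on chromosome 9. It was at the floor of −8 on controls 1 and 2 and at −7.65 on control 3, and at −6.38, −6.61 and −6.84 on models. No control array detected it, and with the controls at the lowest level detected on each array it was at least 1.71-fold higher in model under the main scaling. With normexp its log2 difference was 0.0014. The median over the 12 named members above every control was then 0.11, and over the 12 named below −0.14. miR-466a-5p, of the Sfmbt2 gene cluster, was also detected on no control array, at −8, −7.19 and −6.50 there and at −6.07, −5.62 and −6.37 on models. With control 1 at that lowest detected level and controls 2 and 3 at their own signal, it was 1.83-fold higher. This is no bound, since the signals of controls 2 and 3, though not called detected, lay above the lowest detected level there. With normexp its log2 difference was 0.011. miR-29b-1-5p, the passenger of an anti-fibrotic miRNA, read −5.64, −5.87 and −5.47 in controls and −5.25, −4.73 and −4.80 in models, a narrow gap at model 1.

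On the X chromosome, miR-361-5p from within Chm was higher by 0.41 (SE 0.12), at −1.54, −1.45 and −1.37 against −1.08, −1.07 and −0.996. Its groups were tight and did not overlap. miR-30c-2-3p was higher by 0.41 (SE 0.13), miR-6360 by 0.57 (SE 0.13), miR-466f-5p by 0.92 (SE 0.23) and miR-466p-5p by 1.22 (SE 0.40). miR-466f-5p and miR-466p-5p were dim, with control means of −6.58 and −6.77. Their smallest differences under any alternative were 0.030 and 0.018. Limma adjusted p-values over these named members ran from 0.283 to 0.356.

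Below every control, miR-186-5p from within Zranb2 had the smallest p-value of all. It read −5.08, −5.02 and −5.29 in controls and −5.64, −5.98 and −5.99 in models, a difference of −0.74 (SE 0.16, limma adjusted p = 0.283). Both of its probes were lower, by −0.70 and −0.90, and its difference was 0.09 in the deposited log2 table. miR-1904, from within Pde4d, read −2.93, −3.31 and −3.21 in controls and −3.68, −3.72 and −4.11 in models and stayed lower under every scaling and signal.

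miR-149-5p, from within the proteoglycan gene Gpc1, read −4.96, −5.73 and −5.85 in controls and −6.58, −6.08 and −6.87 in models, where only 1 array detected it. miR-5128 differed by −0.79 (SE 0.34), with model 2 far below the others at −3.26. The remaining 7 named, miR-700-3p, miR-1198-5p, miR-1231-5p, miR-6997-5p, miR-7222-3p, miR-5622-3p and miR-7033-5p, were dim, and all of them had the opposite sign under at least 1 other scaling or signal. Of the 12 named below, 6 turned sign with the 75th percentile over all miRNAs, whereas 0 of the 12 named above did. Relative to the all-miRNA median, which that scaling moved from 0.04 to 0.60, 0 of the 24 turned.

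**Figure D4:**
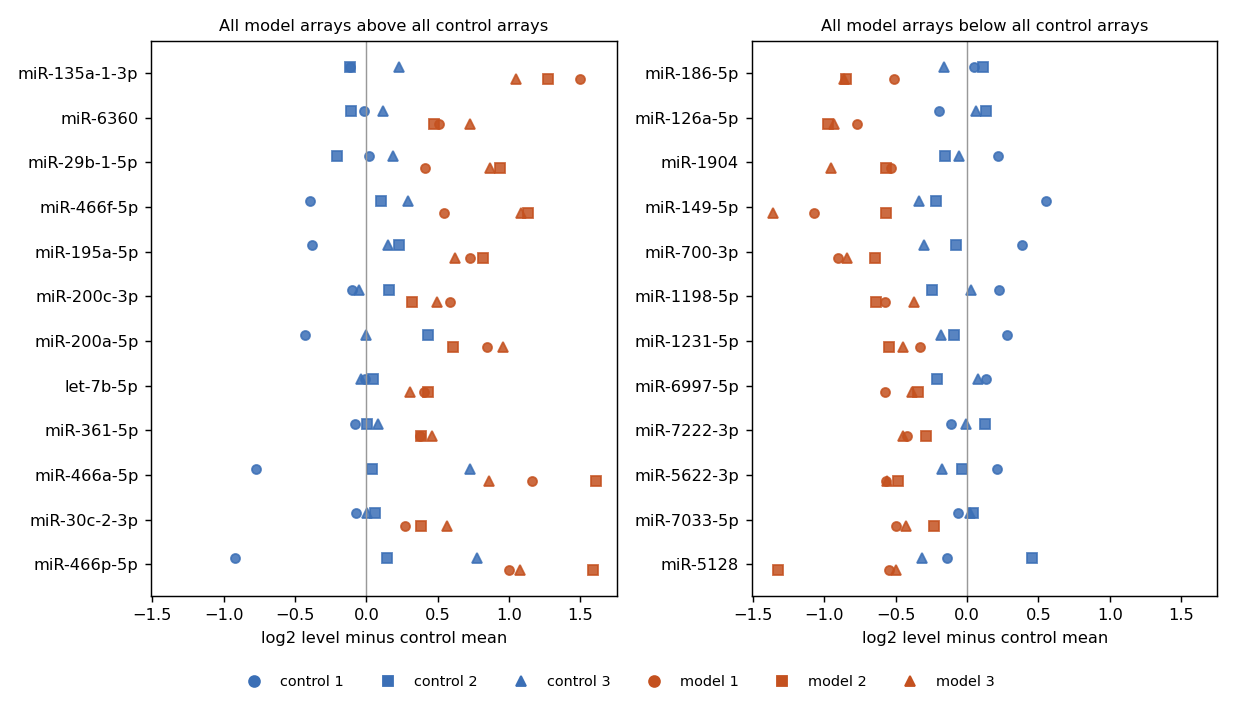
Level on each array minus the mean of the 3 controls (log2) for the 12 miRNAs with the smallest p-values among those with all models above (left) and all below (right) the controls. Blue symbols are controls and red symbols models; no gap was large enough for an adjusted p under 0.283.

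The largest differences were a set chosen after its values were seen, and those toward lower levels were not the best separated. All 18 members lower by 1 or more had control 1 as the highest of the 6 arrays, 0 of them separated the groups and 0 had an unadjusted p under 0.05. miR-466f-3p, of the Sfmbt2 cluster, read 0.17 on control 1 but −5.42 and −6.23 on controls 2 and 3, and −6.44, −5.81 and −5.70 on models, which gave the lowest difference of all, −2.15 (SE 1.59). Control 1 exceeded the mean of controls 2 and 3 by 1.55 to 5.996 in this set. Against controls 2 and 3 alone the 18 differences lay between −0.73 and 0.22, with a median of −0.05 in place of −1.42.

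The 5 members higher by 1 or more were miR-135a-1-3p, miR-466a-5p, miR-466p-5p, miR-489-3p and miR-362-5p. In this set 4 separated the groups and 4 had an unadjusted limma p under 0.05, beside 23.3% and 11.6% of all tested miRNAs. Their differences against controls 2 and 3 were 0.27 to 1.22. All 5 were detected on every model array and on fewer than 3 controls, so they are members only through the side on which they are high. Without control 1 the split of the Sfmbt2-type entries other than 3p arms also moved. Of 20 such members 10 were higher and 10 lower, with a median of 0.01, and the median against controls 2 and 3 was 0.25. This list was formed with earlier results of these arrays known, and relative to all miRNAs its direction turned with quantile normalization and the deposited log2 table.

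Markers of lung cell types were read as lists. Epithelial markers were present, with 9 of 10 listed among the members and a summed scaled signal (linear) of 8.15 to 10.6 in controls and 9.78 to 11.96 in models. The endothelial pair summed to 36.1 to 51.5 in controls and 55.4 to 60.1 in models, nearly all from miR-126a-3p. Erythroid markers, led by miR-451a, summed to 29.8 to 36.2 and 24.5 to 40.2, and multiciliated markers to 3.67 to 4.89 and 3.05 to 6.15, with miR-449b and miR-449c-5p not detected. Of 8 markers of other organs, miR-124-3p, miR-9-5p, miR-9-3p, miR-216a-5p and miR-217-5p were not detected on the 6 arrays. By contrast, miR-192-5p and miR-194-5p were members, higher by 0.26 (SE 0.15) and 0.18 (SE 0.21), the former above every control. miR-122-5p was detected on some of the 6 arrays without being a member.

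Smooth muscle and fibroblast markers went the other way from most bright miRNAs. Of 6 members, which include both arms of miR-143 and of miR-199a, 5 were lower and 2 lay below every control. Over all tested miRNAs those shares were 45.5% and 8.91%. The median of −0.23 was also −0.23 against controls 2 and 3. Their direction relative to all miRNAs held under every scaling and signal. The same held for the inflammation, hypoxia, miR-17 to miR-92, myeloid and leukocyte, and other-organ lists. miR-143-3p, a miRNA of contractile smooth muscle, read 1.16, 1.20 and 0.83 in controls and 0.80, 0.58 and 0.68 in models, a difference of −0.38 (SE 0.19, limma adjusted p = 0.442). Its partner in the same cluster, miR-145a-5p, read −1.24, −1.73 and −2.06 in controls and −2.09, −2.26 and −2.25 in models. In both, the lowest control stood just above the highest model. The fibroblast strand miR-199a-3p was the exception at 0.19, and the summed signal of the list was 6.28 to 8.27 in controls and 6.70 to 7.18 in models.

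Leukocyte markers split the controls themselves. miR-142a-3p read 0.00, 1.25 and 1.66 in controls 1 to 3 and −0.05, 0.20 and −0.03 in models, so that control 1 lay among the models and controls 2 and 3 above them. miR-223-3p, a myeloid miRNA, read 0.11, 0.72 and 2.45 in controls and 0.21, 1.20 and 1.11 in models, and the lymphocyte miRNA miR-150-5p read −2.43, −1.01 and −0.97 against −2.34, −1.64 and −1.88. All 3 myeloid and leukocyte members were lower, with a median of −0.25, which was −0.90 against controls 2 and 3, and 0 passed. The list summed to 2.26 to 9.53 in controls and 2.47 to 3.95 in models, the lymphocyte list to 1.55 to 2.63 and 1.86 to 2.55, and what part blood-derived cells had in other differences was not tested.

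Of the lists on processes tied to ageing, 0 had a member that passed. As a background for this and the process lists below, 54.5% of all tested miRNAs were higher and 14.4% lay above every control. Of the 126 bright members, to which most of the senescence list belongs, 93 were higher and 30 lay above. Of 19 senescence and ageing miRNAs, 16 were higher and 4 lay above every control, with a median of 0.21 that was 0.07 against controls 2 and 3. miR-128-3p differed most, at −2.76, −2.98 and −3.22 in controls and −2.72, −2.11 and −2.03 in models, with model 1 just above control 1. miR-34a-5p, a p53 target, differed by 0.15 (SE 0.16) and miR-21a-5p, raised in inflamed lung, by 0.08 (SE 0.22), both with overlap.

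Of 10 inflammation miRNAs 7 were higher and 2 separated the groups, no larger a share than the 23.3% of all tested miRNAs. These were miR-132-3p at 0.42 (SE 0.18) and miR-146b-5p, a brake on NF-kB signalling, at 0.38 (SE 0.18). The median of that list was 0.13, and 0.00 against controls 2 and 3. All 8 hypoxia miRNAs on the array were members, of which 7 were higher and 3 lay above every control. Their median of 0.23 was 0.14 against controls 2 and 3. miR-210-3p, the main hypoxia-induced miRNA, read −2.82, −2.94 and −2.91 in controls and −2.69, −2.95 and −2.69 in models, a difference of 0.11 (SE 0.23) with overlap.

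Of 11 miRNAs tied to NRF2 and oxidative stress 8 were higher, with a median of 0.09 that was 0.03 against controls 2 and 3, and 0 lay above every control. The 10 miRNAs known to rise in fibrotic lung split into 5 higher and 5 lower, with a median of 0.02 that was −0.04 against controls 2 and 3. Of the 14 known to fall there, 10 were higher, 4 lay above every control and 1 below, with a median of 0.22 and 0.11 against controls 2 and 3. The 3 miR-29 strands, which repress collagen genes, were higher with a median of 0.22, but at −0.03 against controls 2 and 3. Relative to all miRNAs the direction of the senescence, fibrosis-fall and miR-29 lists turned with quantile normalization and the deposited log2 table, that of the NRF2 list with quantile normalization, and that of the fibrosis-rise list with the total gene signal.

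**Figure D5:**
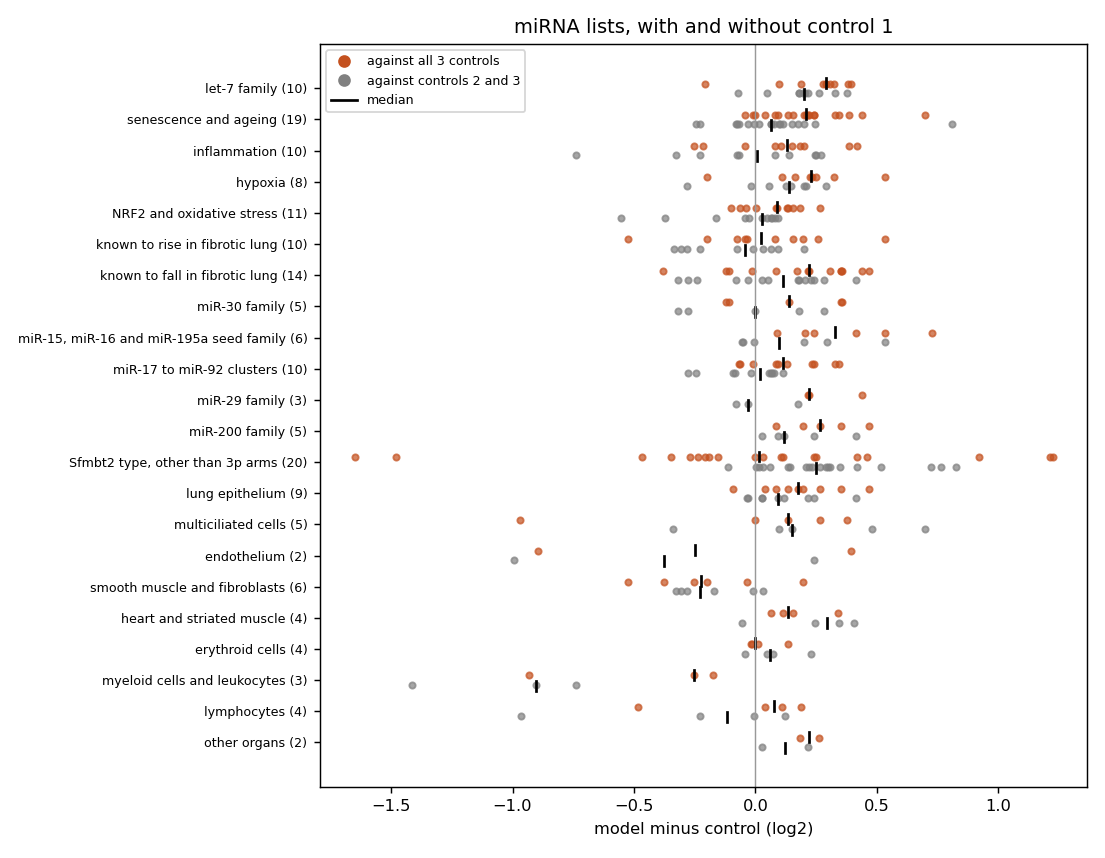
Model minus control difference (log2) of each member of 22 miRNA lists, against all 3 controls (red) and against controls 2 and 3 only (grey), with black bars at the list medians. Most bars of the first kind lie right of 0, and those of let-7, senescence, miR-15 and miR-29 lists move left without control 1, whereas smooth muscle and fibroblasts stay at −0.23 and myeloid cells and leukocytes move from −0.25 to −0.90.

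Of the 6 brightest members, miR-126a-3p and let-7a-5p lay above every control, beside 14.4% of all tested miRNAs. In the others the groups overlapped. miR-3963 read 7.42, 6.19 and 5.63 in controls and 5.50, 5.88 and 5.22 in models, with control 1 far above the rest. miR-451a, the main miRNA of red cells, read 5.13, 4.84 and 4.87 in controls and 5.27, 4.56 and 4.96 in models, so that the groups overlapped fully. miR-6366 and miR-5100 differed by 0.12 (SE 0.26) and −0.37 (SE 0.28), both with overlap.

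Detection on all 3 arrays of a group also differed, though single arrays did not follow the groups. Controls 1 and 2 detected 484 and 448 miRNAs, more than any model array, and control 3 detected 375. A count over all 3 controls cannot exceed that of control 3 and falls further where the controls disagree. On every model array but fewer controls 75 members were detected, and 9 the other way round. Besides miR-135a-1-3p and miR-466a-5p, miR-6378 was detected on every model and no control array, at a fitted 1.29-fold, and miR-7022-3p on every control and no model array, at a fitted 1.67-fold. These fitted folds are no bounds, since on every undetected array the signal itself was above the lowest detected level, and the miR-6378 groups overlapped.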

How the data were processed

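Per the labels' protocols, TRIzol RNA from lung was labelled with pCp-Cy3 and hybridised to Agilent mouse miRNA arrays. The deposited scanner files hold linear intensity from Agilent Feature Extraction (11.5.1.1 per the file headers, 10.10 per the submitters' processing notes). The processed intensity is background-corrected and not scaled between arrays. The authors' deposited value table holds log2 values and served only as an alternative.

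Spots marked non-uniform or as outliers (3.05%) were left out. Intensity was averaged over spots and then probes, divided by the array's 75th percentile over those 289 miRNAs that every one of the 9 arrays detected, floored at 0.00391 and taken to log2. limma 3.58.1 in R 4.3.3 (lmFit, eBayes, two-sided) was fitted to all 9 arrays by group, with 6 residual degrees of freedom and Benjamini-Hochberg adjustment over 404 miRNAs, or over 52 hairpins for arm ratios. P-values rest on the spread among these mice, and the small number of arrays limits precision. Named miRNAs are the 12 with the smallest p among those above, and among those below, every control, members sharing their seeds, their opposite arms, members detected on 1 side only, the 6 brightest and examples from lists. Members and lists were chosen with earlier results of these data known. normexp used the median spot signal, as no mean signal was used here. The fit was tested on simulated data.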

Additional observations from a re-analysis of the deposited data

How the results depend on the processing

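No miRNA passed adjustment over all tested miRNAs under any alternative run, and 46 had an unadjusted p under 0.05 in the main setting. That 46 of 379 became 13 with quantile normalization, 6 when scaled to the 75th percentile of all miRNAs, 29 with median scaling and 16 with normexp. It became 19 in the deposited log2 table and 76 with array weights, which stopped before convergence. With no filter it was 79, but out of all 1881 miRNAs on the array, a smaller share. Leaving out 1 array in turn gave 18 to 51. The 91 members without overlap became 32 when scaled to the 75th percentile of all miRNAs and 35 with normexp. With no filter the count was 144, again out of all 1881 miRNAs and a smaller share. It was 137 with controls 2 and 3 against the models, and 103 to 137 without 1 array. Groups separate more easily with fewer arrays, so these last counts are not comparable with 91. The median of 0.05 became 0.37 with quantile normalization, 0.38 in the deposited table and 0.61 with the 75th percentile over all miRNAs, and 0.01 to 0.07 without 1 array. The 2 arm ratios past the threshold became 0 with quantile normalization and the deposited table, 1 with normexp (miR-142a), total gene signal, the 6 arrays alone or sex as a covariate, 9 with array weights and 1 to 2 without 1 array. Scaling to the 75th percentile of all miRNAs gave opposite signs for miR-1198-5p (0.043), miR-1231-5p (0.13), miR-6997-5p (0.13), miR-7222-3p (0.18), miR-5622-3p (0.032) and miR-7033-5p (0.18). With quantile normalization they were 0.15, 0.16, 0.21, 0.26, 0.017 and 0.28 in the same order. The deposited table gave 0.092 for miR-186-5p, 0.15 for miR-700-3p, 0.20 for miR-1198-5p, 0.23 for miR-1231-5p, 0.44 for miR-6997-5p and 0.083 for miR-5622-3p. Total gene signal gave 0.66 for miR-6997-5p and 0.037 for miR-7033-5p, and normexp −0.030 for miR-6378 and −0.067 for the miR-200a ratio. The cause of each was not tested. In all, 216 of 379 members changed sign under some scaling or signal. Slide as a block was not run, since each group lay on 1 slide. The sample titles carry numbers, but 2 controls share number 1 and same-numbered model and control arrays deviated with r of −0.27, −0.24 and −0.44, so they were not taken as pairs. With the title number as a replicate block, added after seeing the data, 9 members had an unadjusted p under 0.05 and 1 arm ratio passed (miR-126a, adjusted p = 0.0452 in limma). Dim probes near the floor limit what could be measured.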
